A study of Mus musculus with 8 samples.

Results

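The Slc25 family of mitochondrial solute carriers was examined in right ventricular RNA from WT and POLG mutant mice. Its members were taken from the deposited expression table by their symbol (Slc25a followed by a number), with the row of highest mean kept for each symbol. This gave 48 of 55421 genes, of which 47 are annotated as protein-coding and 1, Slc25a5-ps, as a pseudogene. A mean of at least 1 FPKM (fragments per transcript length, relative to the total mapped in a library) over the 8 libraries was reached by 34 of the 48, and these 34 were tested among 10236 genes in all.

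Slc25 carriers are nuclear-encoded proteins that fold into bundles of transmembrane helices, most of them in the inner mitochondrial membrane. Most exchange or import particular solutes between the cytosol and the matrix. ATP synthase thereby receives ADP and phosphate, the respiratory chain reducing equivalents, and the matrix enzymes their amino acids, acylcarnitines, iron and cofactors. In the heart, whose contraction depends on oxidative phosphorylation and on fatty acid oxidation, the ADP/ATP carrier Slc25a4 and the phosphate carrier Slc25a3 supply ATP synthase, and Slc25a20 brings acylcarnitines to beta-oxidation.

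The study compared 4 female WT mice (libraries A to D) with 4 female mice homozygous for POLG D257A (libraries E to H), all 9 to 10 months old, with 1 poly(A) library per mouse. Mutants and WT mice came from heterozygous crosses of the B6.129S7(Cg)-Polgtm1Prol/J line. The mutant mitochondrial DNA polymerase cannot proofread. The allele is carried in every tissue, not in the heart alone. It is a point change, and the level of Polg therefore does not check the labels (3.89 to 4.84 FPKM in WT and 3.13 to 3.88 FPKM in POLG). Rough depths read from the spacing of low values were 13.5 to 22.7 M fragments per library. They were lowest in WT C (13.5 M), POLG H (15.2 M) and WT D (16.2 M), and 20.6 M or more elsewhere. Of the WT libraries, C and D differed from all others in the atrial myosin light chain Myl7 (51.7 and 110.0 FPKM, elsewhere 0.498 FPKM or less) and in Malat1, a nuclear RNA (237 and 211 FPKM, elsewhere 71.4 FPKM or less). Summed mesothelial markers also set C and D apart (9.43 to 11.3 FPKM, elsewhere 3.79 FPKM or less). So did summed neutrophil markers (0.938 to 1.76 FPKM, elsewhere 5.68 FPKM or more). All 6 cardiomyocyte markers were above 1 FPKM in every library. In tissue RNA, fewer cells of a type and less RNA per cell cannot be told apart.

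The promoters of 3 carriers are shown, chosen from the results below. Of these only Slc25a29 passed the test described there. Slc25a26, which also passed, had no entry among the promoter sequences used. Slc25a29 was lower in POLG and starts back to back with Slc25a47, which had no overlap between genotypes in the same direction. Slc25a33 and Slc25a20 had the largest downward and upward differences without overlap among carriers with a mean of at least 5 FPKM. Each sequence runs 5′ to 3′ on the gene's own strand, from 250 bases before to 50 bases from its RefSeq start (GRCm38.p6), and capitals mark matches to the motifs searched on both strands.
Slc25a29: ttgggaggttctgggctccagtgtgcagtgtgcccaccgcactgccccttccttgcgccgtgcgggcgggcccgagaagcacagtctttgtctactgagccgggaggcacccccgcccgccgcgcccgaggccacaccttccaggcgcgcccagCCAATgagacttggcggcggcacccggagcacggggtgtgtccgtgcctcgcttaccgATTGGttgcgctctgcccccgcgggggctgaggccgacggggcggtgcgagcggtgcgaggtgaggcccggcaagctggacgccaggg
Slc25a33: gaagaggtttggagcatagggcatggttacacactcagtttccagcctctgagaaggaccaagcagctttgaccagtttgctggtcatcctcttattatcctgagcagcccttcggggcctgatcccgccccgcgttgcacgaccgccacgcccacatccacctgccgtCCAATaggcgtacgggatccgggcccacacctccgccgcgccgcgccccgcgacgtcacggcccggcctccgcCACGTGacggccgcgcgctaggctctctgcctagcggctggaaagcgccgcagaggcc
Slc25a20: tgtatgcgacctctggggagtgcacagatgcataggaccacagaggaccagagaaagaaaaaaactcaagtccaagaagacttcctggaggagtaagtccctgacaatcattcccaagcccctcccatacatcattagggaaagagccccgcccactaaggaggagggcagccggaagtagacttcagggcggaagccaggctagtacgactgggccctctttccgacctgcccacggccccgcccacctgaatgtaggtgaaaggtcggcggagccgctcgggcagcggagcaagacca

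The Slc25a29 sequence lies at chr12:108835827-108836126 on the minus strand, that of Slc25a33 at chr4:149774218-149774517 on the minus strand and that of Slc25a20 at chr9:108661886-108662185 on the plus strand. With the start at position 0, CCAAT boxes began at positions -96 and -38 of Slc25a29, the latter as ATTGG on the strand shown. Slc25a33 held a CCAAT box at -81 and the E-box CACGTG at -8. Slc25a20 held none of the 6 motifs searched. Over the 26 of 34 tested carriers with an entry in the promoter table, CCAAT was present in 15, against 37.9% of all 27025 promoters of the same length. CACGTG was present in 4 (7.24% of all promoters), AGGTCA in 3 (16.0%) and AAGGTCA, which contains AGGTCA, in 1 (4.66%), and neither GCATGCG (3.64%) nor TGATGNAA (4.06%) was present in any. These are matches of letters and are given as a description.

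Slc25a4, the ADP/ATP carrier of heart and muscle, supplied most of the family's RNA. Per length, it made up 67.9% ± 1.20 of the WT sum of Slc25 FPKM and 69.9% ± 2.32 of the POLG sum (SD, n = 4 each). These sums over all members were 2387 ± 114 FPKM and 2513 ± 205 FPKM, respectively, which is 0.385% and 0.387% of all FPKM in the table. The 2233 to 2506 FPKM of the WT libraries and the 2396 to 2819 FPKM of the POLG libraries overlapped.

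**Figure D1:**
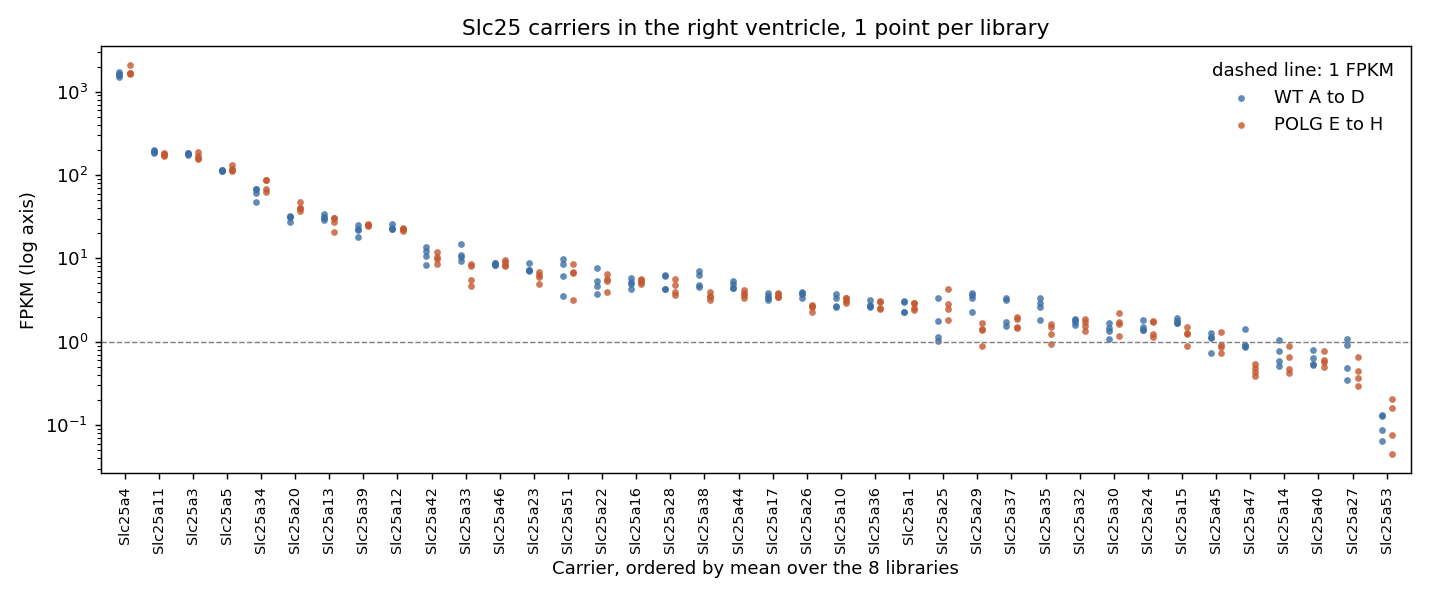
FPKM (log axis) of 38 Slc25 carriers above the placeholder for 0 in every library, ordered by their mean, with WT libraries in blue and POLG libraries in red and a dashed line at 1 FPKM. Slc25a4 lies at 1513 to 2067 FPKM, the next 3 carriers between 111 and 199 FPKM, and for most carriers the genotypes overlap.

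Of the 34 tested carriers, 2 passed the test at an adjusted p under 0.05, both with lower values in POLG (limma on log2(FPKM + 1), adjusted after Benjamini and Hochberg over all 10236 genes). Over all genes tested, 2.12% were lower and 0.694% higher by the same rule. The 2 that fell were Slc25a29, the carrier of basic amino acids, and Slc25a26, which imports S-adenosylmethionine, the methyl donor. At an unadjusted p under 0.05, 9 carriers were lower and 1 higher, where 17.6% and 4.61% of all genes were. The WT and POLG libraries did not overlap in 11 carriers, 10 of them lower and 1 higher in POLG, against 12.9% and 2.96% of all genes. For a gene without overlap, an exact permutation test (two-sided) can only give 0.0286, the lowest p possible with 4 mice per genotype. That p therefore adds no support for these 11. Log2 fold changes were below 0 in 21 carriers and above 0 in 13, where 68.3% of all genes were below 0. Their median was -0.07, beside -0.09 over all genes. Median ratio scaling raised the median of all genes by 0.09 and gave a median of 0.01 over the carriers, with 16 below 0, and quantile normalization gave -0.01, with 18 below 0. Scaling to nuclear-encoded genes moved it the other way, to a median of -0.10 over the carriers, with 25 below 0. The balance of small differences in either direction therefore rests on the scaling. Over all genes, 129 were then higher and 120 lower after median ratio scaling, against 71 and 217 as deposited.

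**Figure D2:**
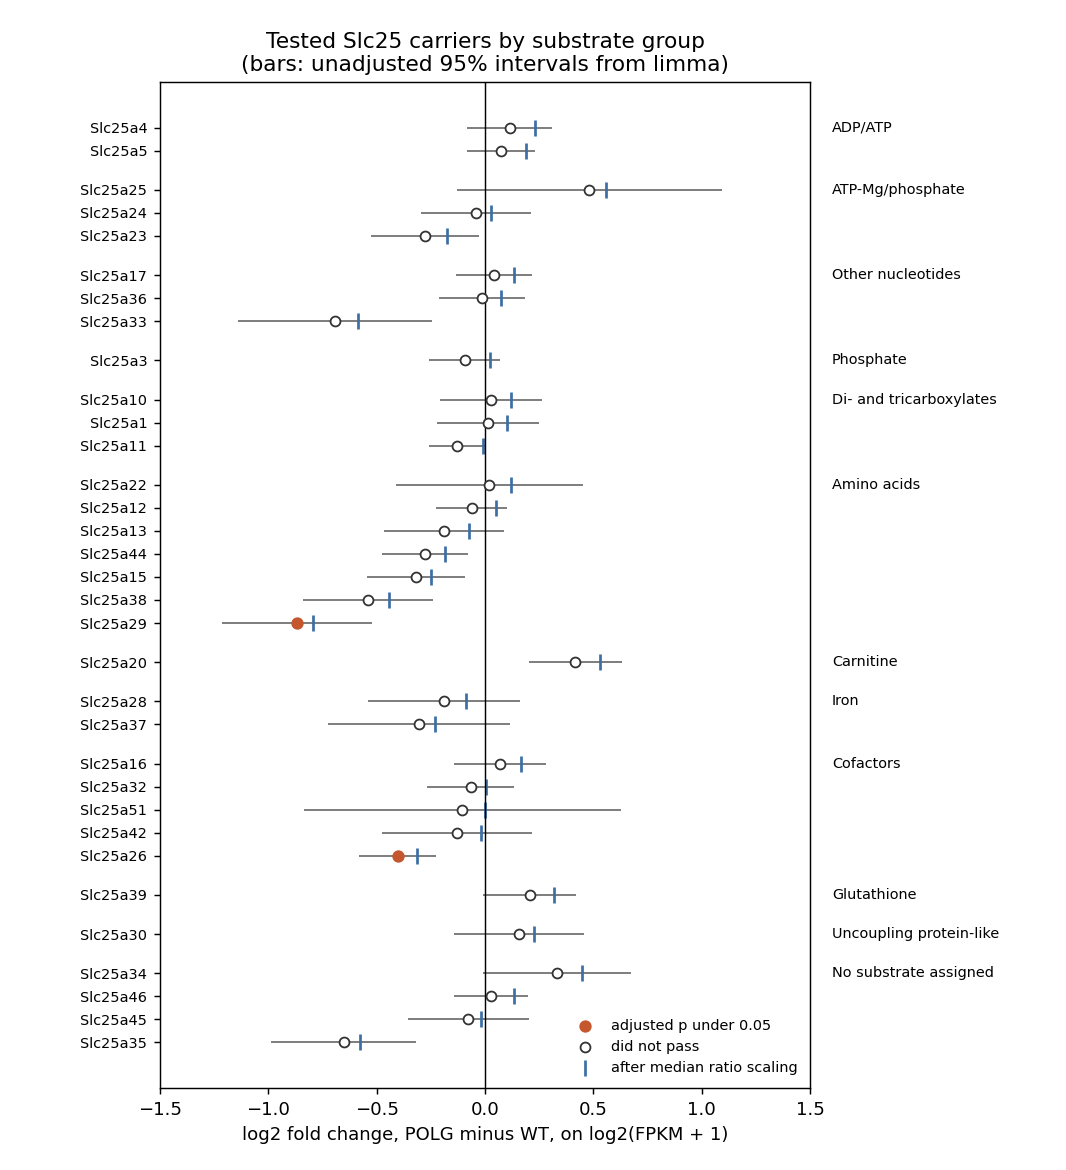
Log2 fold change (POLG minus WT, on log2(FPKM + 1)) of 33 tested carriers by substrate group, with unadjusted 95% intervals from limma, and the value after median ratio scaling as a blue tick. Filled points mark Slc25a29 at -0.87 and Slc25a26 at -0.40, and Slc25a20 at 0.42 is the highest point whose interval lies above 0.

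The ADP/ATP carriers exchange matrix ATP for cytosolic ADP. Of 3 in the table, Slc25a4 and Slc25a5 were tested and neither passed. Slc25a4 was at 1513, 1639.5, 1742 and 1592 FPKM in WT and at 1659, 1686, 1632 and 2067 FPKM in POLG. Only POLG H lay above all WT libraries, and the difference was 0.11 (log2, SE 0.086, adjusted p = 0.467). Slc25a5, the more widely expressed form, was at 111, 114, 115 and 111 FPKM in WT and at 114, 132, 117 and 112 FPKM in POLG (log2 difference 0.07, SE 0.069, adjusted p = 0.568). The ratio of Slc25a5 to Slc25a4 within a library was 0.0696 ± 0.00294 for WT and 0.0683 ± 0.0101 for POLG (SD, n = 4 each), and the groups overlapped. The testis form Slc25a31 was at 0.124 FPKM or less in every library. Slc25a3, which carries phosphate and also copper, was at 172, 177, 183 and 185 FPKM in WT and at 155, 162, 186 and 170.3 FPKM in POLG. The groups overlapped, and its difference of -0.09 (SE 0.072, adjusted p = 0.479) became 0.02 after median ratio scaling.

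Slc25a20, the carnitine-acylcarnitine carrier, was the only 1 of 34 tested carriers whose POLG libraries all lay above all WT libraries. Over all genes tested, 2.96% were higher in this way, so 1 carrier is near that share. Slc25a20 was at 27.4, 31.1, 31.5 and 32.2 FPKM in WT and at 39.7, 36.8, 40.7 and 47.5 FPKM in POLG. Its means were 30.5 ± 2.13 and 41.2 ± 4.52 FPKM (SD, n = 4 each), a ratio of 1.35. The log2 difference was 0.42 (SE 0.094, unadjusted 95% interval 0.20 to 0.63, adjusted p = 0.0541), and 0.53 after median ratio scaling (adjusted p = 0.0639). It passed with only genes of at least 5 FPKM in the fit (adjusted p = 0.0367) and with library weights (adjusted p = 0.0320). Without WT C and D it was 0.48 (adjusted p = 0.176). The 18 annotated genes that share a stretch of 97.5% to 98.9% identity with it summed to 0.157 FPKM, against 35.9 FPKM for Slc25a20.

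The amino acid carriers held the largest decrease in the family. Of 9 members listed, 7 were tested, 6 had a fold change below 0, 4 had no overlap between genotypes and all 4 of these were lower in POLG, and 1 passed the test. Over all genes tested, 68.3% were below 0, 12.9% were lower without overlap and 2.12% passed as lower. Slc25a29 (ENSMUSG00000021265.3, chr12:108825873-108835883, minus strand, mm10) was at 3.38, 2.26, 3.67 and 3.83 FPKM in WT and at 1.37, 1.68, 1.43 and 0.890 FPKM in POLG. The highest POLG library lay below the lowest WT library, B. Its means were 3.29 ± 0.710 and 1.34 ± 0.329 FPKM (SD, n = 4 each), a 2.45-fold difference in FPKM. The log2 fold change was -0.87 (SE 0.153, adjusted p = 0.0339), and -0.79 after median ratio scaling (adjusted p = 0.0321).

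Leaving out 1 library gave log2 fold changes from -0.99 to -0.77 and adjusted p from 0.0166 (without WT B) to 0.0937 (without WT D), and the call was kept only without WT B. With no filter on low values the adjusted p was 0.0822. Without WT C and D the value was -0.70 (adjusted p = 0.172).

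Slc25a47, a carrier known from liver, starts 162 bases from Slc25a29 on the opposite strand in the annotation used here (GENCODE M21, plus strand, from 108836046). That start falls on base 81 of the Slc25a29 sequence shown above, 170 bases before the RefSeq start of Slc25a29. RefSeq places the start of Slc25a47 elsewhere. Slc25a47 was at 0.918, 0.875, 0.877 and 1.43 FPKM in WT and at 0.388, 0.535, 0.436 and 0.482 FPKM in POLG, with no overlap. Its mean of 0.743 FPKM kept it out of the test, and in the fit with no filter it had a log2 difference of -0.46 (SE 0.104, adjusted p = 0.122). Both genes of the pair were thus lower in every POLG library than in any WT library.

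The other 3 amino acid carriers without overlap did not pass, and they are named here after their values were seen, since their means were under 5 FPKM. Slc25a38, the glycine carrier needed for haem synthesis, was at 6.37, 4.83, 4.47 and 7.04 FPKM in WT and at 3.96, 3.57, 3.47 and 3.20 FPKM in POLG (log2 difference -0.54, SE 0.132, adjusted p = 0.0675). Slc25a44, which carries branched-chain amino acids, was at 4.36 to 5.30 FPKM in WT and at 3.31 to 4.13 FPKM in POLG (-0.28, adjusted p = 0.122). Slc25a15, the ornithine carrier of the urea cycle, was at 1.66 to 1.92 FPKM in WT and at 0.877 to 1.50 FPKM in POLG (-0.32, adjusted p = 0.120).

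The aspartate-glutamate carriers, part of the malate-aspartate shuttle that passes cytosolic reducing equivalents to the matrix, were the most abundant of this group. Slc25a13 was at 31.0, 28.6, 30.8 and 33.7 FPKM in WT and at 27.7, 30.4, 30.4 and 20.97 FPKM in POLG (log2 difference -0.19, SE 0.122, adjusted p = 0.391). Only POLG E and H lay below all WT libraries. Slc25a12 was at 22.2 to 25.6 FPKM in WT and at 21.4 to 23.0 FPKM in POLG, and the ratio of Slc25a13 to Slc25a12 was 1.33 ± 0.133 and 1.23 ± 0.197 (SD, n = 4 each). The glutamate carrier Slc25a22 had a log2 difference of 0.02 (adjusted p = 0.966), and Slc25a18 and Slc25a2 were below 1 FPKM in every library.

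**Figure D3:**
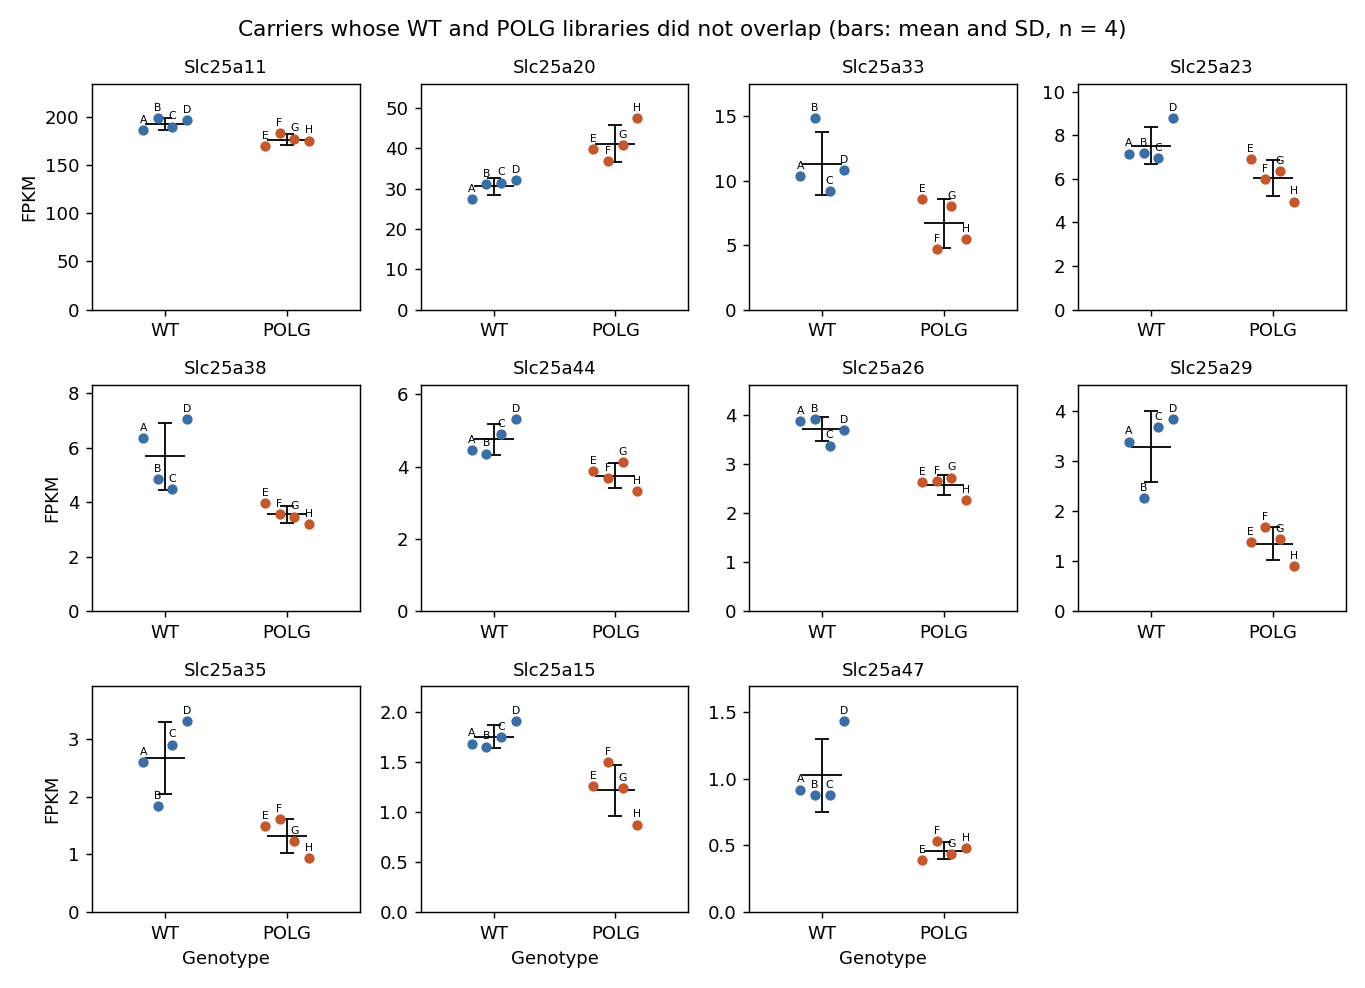
FPKM per library (letters), mean and SD (n = 4) of 11 carriers whose genotypes did not overlap, each panel with its own axis from 0. Slc25a20 is the carrier with higher POLG values, and the other 10 are lower, Slc25a29 from 3.29 to 1.34 FPKM and Slc25a26 from 3.71 to 2.57 FPKM. Slc25a47, with a mean under 1 FPKM, was not tested.

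Cofactor carriers bring coenzymes that the matrix cannot make or charge itself. All 6 in the table were tested, 5 had a fold change below 0 (68.3% of all genes) and 1 passed (2.12%), Slc25a26 (ENSMUSG00000045100.11, chr6:94500331-94604672, plus strand, mm10). It was at 3.87, 3.91, 3.38 and 3.70 FPKM in WT and at 2.62, 2.66, 2.72 and 2.26 FPKM in POLG. The gap between the lowest WT and the highest POLG library was larger than the range within either genotype. Its means were 3.71 ± 0.244 and 2.57 ± 0.208 FPKM (SD, n = 4 each), a 1.45-fold difference, with a log2 fold change of -0.40 (SE 0.079, adjusted p = 0.0388).

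The direction for Slc25a26 held in all these settings, but the call did not. After median ratio scaling it was -0.31 (adjusted p = 0.0408). Leaving out any 1 of the 8 libraries gave -0.44 to -0.36 with adjusted p from 0.0572 to 0.113. With no filter the adjusted p was 0.0822, and without WT C and D the value was -0.46 (adjusted p = 0.133). Slc25a26 shares 144 bases with Lrig1 on the opposite strand, which had a log2 difference of -0.18 (adjusted p = 0.267), and whether the counting used strand is not given in the sources used here.

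Among the other cofactor carriers, Slc25a42, which imports coenzyme A, had the highest level. It was at 8.23, 10.7, 12.3 and 13.8 FPKM in WT and at 11.8, 8.64, 10.3 and 9.70 FPKM in POLG (log2 difference -0.13, SE 0.152, adjusted p = 0.659). Slc25a16, Slc25a32 (folate and FAD) and Slc25a51 (NAD) had differences of 0.07, -0.07 and -0.11 (adjusted p from 0.701 to 0.883). The values of Slc25a51 ranged from 3.20 to 9.83 FPKM over the 8 libraries, so this comparison had little precision (SE 0.322).

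Pyrimidine nucleotides reach the matrix, where mitochondrial DNA and RNA are made, through Slc25a33 and Slc25a36. Slc25a33 was at 10.4, 14.9, 9.21 and 10.9 FPKM in WT and at 8.59, 4.71, 8.05 and 5.49 FPKM in POLG. The groups did not overlap, with means of 11.3 ± 2.46 and 6.71 ± 1.90 FPKM (SD, n = 4 each), but the spread within each was wide and the log2 difference of -0.69 did not pass (SE 0.197, adjusted p = 0.0958, and 0.141 after median ratio scaling). Slc25a36 was at 2.60 to 3.13 FPKM in WT and at 2.47 to 3.05 FPKM in POLG (-0.01, adjusted p = 0.944). The ratio of Slc25a33 to Slc25a36, which a scaling factor per library does not change, was 3.99, 4.75, 3.43 and 3.96 in WT and 2.82, 1.91, 3.19 and 1.85 in POLG. It was the only ratio of the 7 compared that did not overlap, and it is given as a description. Slc25a17, a peroxisomal carrier of nucleotide cofactors, had a difference of 0.04 (adjusted p = 0.791).

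**Figure D4:**
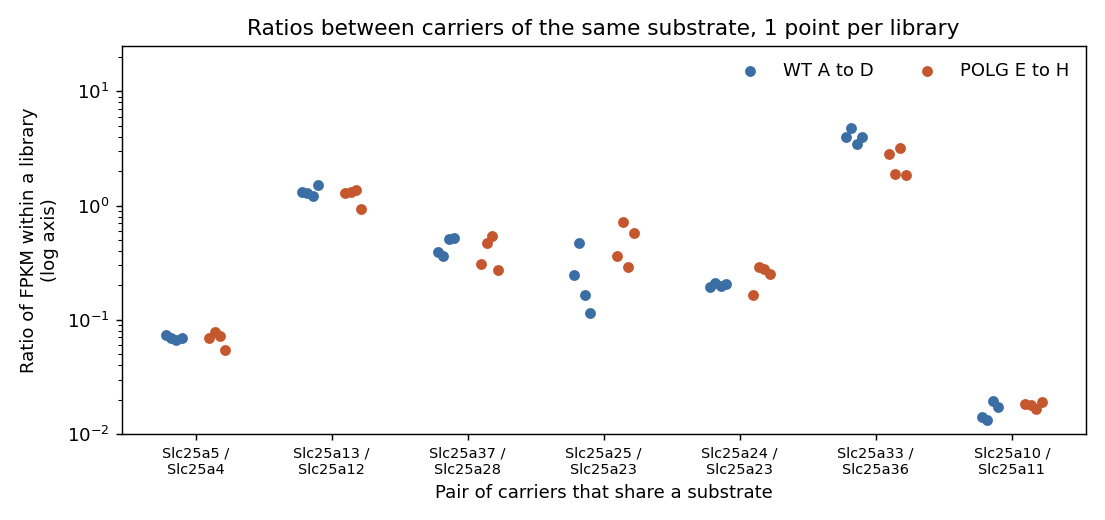
Ratio of the FPKM of 2 carriers that share a substrate, 1 point per library on a log axis, for the 7 pairs with both members at a mean of at least 1 FPKM. The ratio of Slc25a33 to Slc25a36 is at 3.43 to 4.75 in WT (blue) and at 1.85 to 3.19 in POLG (red), and the other 6 pairs overlap.

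The ATP-Mg/phosphate carriers, some of them gated by calcium, set the size of the matrix adenine nucleotide pool. Of 5 members listed, 3 were tested and none passed. Slc25a23 was at 7.16, 7.19, 6.96 and 8.79 FPKM in WT and at 6.89, 5.98, 6.35 and 4.95 FPKM in POLG, with POLG E close below WT C (log2 difference -0.28, SE 0.110, adjusted p = 0.185). Slc25a25 ranged from 1.01 to 3.39 FPKM in WT and from 1.83 to 4.28 FPKM in POLG (0.48, SE 0.270, adjusted p = 0.326), and Slc25a24 had a difference of -0.04 (adjusted p = 0.868). The ratio of Slc25a25 to Slc25a23 was 0.249 ± 0.158 for WT and 0.483 ± 0.195 for POLG (SD, n = 4 each), with overlap.

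The carriers of di- and tricarboxylates link the citric acid cycle to the cytosol. Slc25a11, the oxoglutarate-malate carrier, was the second most abundant carrier, at 186, 199, 190.0 and 197 FPKM in WT and at 169, 183, 177 and 175 FPKM in POLG. The groups did not overlap, but the log2 difference of -0.13 was small (SE 0.058, adjusted p = 0.239), and it was -0.01 after median ratio scaling. The citrate carrier Slc25a1 and the dicarboxylate carrier Slc25a10 had differences of 0.01 and 0.03 (adjusted p = 0.957 and 0.900).

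Slc25a39, which imports glutathione, was at 22.5, 24.8, 18.2 and 21.9 FPKM in WT and at 25.2, 24.8, 24.8 and 26.0 FPKM in POLG (log2 difference 0.21, SE 0.094, adjusted p = 0.242). WT B was as high as POLG F and G, so the groups overlapped. The mitoferrins, which import iron for haem and iron-sulphur clusters, did not pass. Slc25a28 was at 4.31, 4.30, 6.13 and 6.29 FPKM in WT and at 4.76, 3.97, 3.60 and 5.58 FPKM in POLG (-0.19, SE 0.155, adjusted p = 0.507). Slc25a37, the form of red cell precursors, was at 1.71, 1.55, 3.15 and 3.30 FPKM in WT and at 1.46, 1.88, 1.95 and 1.51 FPKM in POLG (-0.31, adjusted p = 0.360). The high WT libraries of both genes were C and D, and without them the differences were 0.03 for Slc25a28 and 0.04 for Slc25a37. Slc25a30, related to the uncoupling proteins, was at 1.66, 1.08, 1.46 and 1.34 FPKM in WT and at 2.20, 1.73, 1.63 and 1.16 FPKM in POLG (0.16, SE 0.132, adjusted p = 0.515).

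Of 8 carriers with no substrate assigned here, 4 were tested and none passed. Slc25a34 was the fifth most abundant carrier of all, at 47.2, 68.7, 60.4 and 67.1 FPKM in WT and at 88.3, 63.4, 68.6 and 87.2 FPKM in POLG. POLG E and H were the highest and the groups overlapped (log2 difference 0.33, SE 0.151, adjusted p = 0.239). Slc25a35 was at 2.60, 1.84, 2.90 and 3.31 FPKM in WT and at 1.49, 1.62, 1.22 and 0.942 FPKM in POLG, without overlap (-0.65, SE 0.147, adjusted p = 0.0541). It shares 1882 bases with Rangrf on the opposite strand, which was at a mean of 13.3 FPKM with a log2 difference of -0.69 (adjusted p = 0.0696), so the values of Slc25a35 are uncertain. Slc25a46, a protein of the outer mitochondrial membrane, and Slc25a45 had differences of 0.03 and -0.08 (adjusted p = 0.868 and 0.754).

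The 14 carriers that were not tested had means of at most 0.743 FPKM. Slc25a41 and Slc25a54 were listed at 0 in all 8 libraries, 7 others were listed at 0 in some, and Slc25a47 was the only 1 of the 14 whose genotypes did not overlap. Slc25a14 and Slc25a27, related to the uncoupling proteins, and Slc25a40, a relative of Slc25a39, lay between 0.297 and 1.07 FPKM. Among tested carriers, Slc25a45 was the only 1 with a group mean under 1 FPKM.

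Other transporters and the enzymes that make or use the carried solutes were described from lists of 92 genes, of which 75 were tested. By the same test 3 were higher and 6 lower in POLG, against 0.694% and 2.12% of all genes. Around the amino acid carriers, 4 of 8 tested genes fell and none rose. Bckdhb and Dbt, subunits of the branched-chain ketoacid dehydrogenase, are those with the largest falls. Bckdhb was at 22.7, 25.2, 26.0 and 27.4 FPKM in WT and at 13.7, 14.6, 15.0 and 13.2 FPKM in POLG, every POLG library below every WT library (log2 fold change -0.80, SE 0.081, adjusted p = 0.00503, and at most 0.0233 when any 1 library was left out). Dbt was at 13.3 to 15.6 FPKM in WT and at 6.30 to 10.1 FPKM in POLG (-0.70, SE 0.130, adjusted p = 0.0367). Bcat2, the mitochondrial branched-chain aminotransferase, was at 19.6 to 22.8 FPKM in WT and at 14.2 to 15.6 FPKM in POLG (-0.44, SE 0.074, adjusted p = 0.0276). The fourth, Oat, which uses ornithine, fell by less (-0.30, adjusted p = 0.0449) and did not pass after median ratio scaling (adjusted p = 0.147).

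Beside the carnitine carrier, Cpt1a, which makes acylcarnitines at the outer membrane, was at 4.84, 6.45, 6.50 and 6.92 FPKM in WT and at 11.5, 8.66, 8.67 and 10.8 FPKM in POLG. It rose without overlap (log2 fold change 0.60, SE 0.129, adjusted p = 0.0473), and it was the only 1 of 6 tested genes of the carnitine shuttle that passed. The muscle form Cpt1b was at 117 to 149 FPKM in WT and at 136 to 179 FPKM in POLG (0.25, adjusted p = 0.217), and Cpt2 had a difference of 0.05 (adjusted p = 0.850). Of 4 tested genes with the carrier fold but other symbols, Ucp2, an uncoupling protein family member, rose. It was at 5.58, 6.07, 5.05 and 6.55 FPKM in WT and at 10.05, 7.94, 9.59 and 10.2 FPKM in POLG, without overlap (0.62, SE 0.104, adjusted p = 0.0300). Ucp3 was at 7.91 to 36.1 FPKM in WT and at 13.8 to 42.2 FPKM in POLG (0.91, SE 0.471, adjusted p = 0.293).

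Of 12 tested genes around the cofactor carriers, Nampt, which makes the NAD precursor nicotinamide mononucleotide, fell (-0.39, SE 0.076, adjusted p = 0.0388), and so did Pank4, a member of the pantothenate kinase family (-0.56, SE 0.121, adjusted p = 0.0497). Neither passed after median ratio scaling (adjusted p = 0.134 and 0.0657). Mthfd2, a folate enzyme of the matrix singled out after its values were seen, was at 0.338, 0.377, 0.228 and 0.215 FPKM in WT and at 1.31, 1.65, 1.98 and 1.50 FPKM in POLG. Its mean was under 1 FPKM, so it was not among the genes tested, and in the fit with no filter its log2 fold change was 1.01 (SE 0.101, adjusted p = 0.0176). Of 11 genes of iron-sulphur and haem synthesis only Alas2, the erythroid aminolevulinate synthase, passed (1.58, SE 0.243, adjusted p = 0.0194), and its housekeeping form Alas1 did not (-0.16, adjusted p = 0.628). None passed of 16 other membrane transporters, which include the pyruvate carrier, the porins and the calcium uniporter, of 6 genes tied to adenine nucleotides, of 6 of the malate-aspartate and citrate routes and of 6 of glutathione metabolism. Of the 9 calls in these lists, only that of Bckdhb was kept without each library in turn, and none was kept without WT C and D, where Bckdhb had an adjusted p of 0.0531.

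Sums of markers of some cell types differed between genotypes without overlap. The sums of other lists, such as endothelial, fibroblast and macrophage markers, overlapped. The 6 cardiomyocyte markers summed to 10540 to 12660 FPKM in WT and to 7330 to 9948 FPKM in POLG. Singly, Tnnt2 and Actc1 overlapped between genotypes, and only Myh6 and Tnni3 passed the test as lower. The erythroid markers, 5 of 6 at a mean of at least 1 FPKM with Slc4a1 below, summed to 890 to 1956 FPKM in WT and to 2722 to 4885 FPKM in POLG, and Alas2 is on that list as well as among the haem genes. The smooth muscle markers, 3 of 4 at a mean of at least 1 FPKM with Cnn1 below, summed to 71.6 to 98.0 FPKM in WT and to 26.8 to 55.0 FPKM in POLG. Most of these sums was Acta2, at 56.8 to 75.9 FPKM in WT and at 14.8 to 42.1 FPKM in POLG, which did not pass the test. Only Myh11 passed as lower, and Tagln and Cnn1 overlapped between genotypes. Of the 4 brown fat markers only Cidea reached a mean of 1 FPKM. Elovl3 was listed at 0 in all libraries, Ucp1 in all but POLG E, and Dio2 was at 0.30 FPKM or less. The sums of 13.2 to 17.8 FPKM in WT and 22.6 to 28.3 FPKM in POLG therefore follow Cidea and do not show that brown fat was present. The part of cell types in the results for Slc25a29, Slc25a26, Slc25a20 and the enzymes above was not tested.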

How the data were processed

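The authors made stranded poly(A) libraries from flash-frozen right ventricles, sequenced paired ends, mapped them to mm10 with HISAT2 and deposited FPKM per gene from StringTie, with 0.0001 in place of 0. The submitters' processing notes also name cutadapt, FastQC and edgeR, without versions. The deposited table also holds the authors' ratio of mean FPKM and its log2 value, which were not used. Each mouse is 1 library, grouped by the genotype label.

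FPKM are not counts, so log2(FPKM + 1) was fitted with limma 3.58.1 (R 4.3.3, trended prior) over all genes that averaged 1 FPKM or more, with Benjamini-Hochberg adjustment and a threshold of 0.05. Fold changes on this scale understate those of low genes. Depth is a rough estimate: 35.9% to 39.6% of low values came within 2% of whole fragments, so no count test was run. The limma step was tested on simulated data. Near-identical copies were sought with BLAST 2.17.0, and promoter sequences come from RefSeq (GRCm38.p6). Tables were handled in Python 3.11.15 with pandas 2.3.3 and numpy 2.4.6.

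Members, lists and rules were chosen with earlier results of these data known. Values are given for carriers that passed, those without overlap that averaged 5 FPKM or more, the 8 most abundant, the most abundant of each substrate group, and up to 3 passing genes per list of partners. Other genes given with values were chosen after these were seen. The counts include 1 tested carrier that is not reported here by name or in the figures. Alternatives were pseudocounts of 0.1 and 5, no filter or 5 FPKM, median ratio, quantile and nuclear-gene scaling, no trend, robust prior, library weights, and leaving out each library, or WT C and D.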

Additional observations from a re-analysis of the deposited data

Results flagged for a closer look

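Dixon's test for a library far from the others was run on the 24 groups of 4 libraries of the 12 carriers named by rule, and 2 stood out. Chance alone puts about 1 in 20 such groups past its limit. Slc25a4 was at 2067 FPKM in POLG H, above 1632 to 1686 FPKM in the other POLG libraries. Without POLG H its log2 difference was 0.03 (limma, adjusted p = 0.795), against 0.11 with all libraries. Slc25a23 was at 8.79 FPKM in WT D, above 6.96 to 7.19 FPKM in the other WT libraries.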

How the results depend on the processing

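Counts of carriers that passed moved with the processing. None was higher in POLG as reported above, and 1 was with a filter at 5 FPKM or with library weights (Slc25a20 in both). The 2 lower carriers became 0 at 5 FPKM, where neither was tested, 0 with no filter, 0 without WT C and D, and 4 with library weights, which added Slc25a35 and Slc25a38. Leaving out each library gave 0 to 2, and the 2 without WT B were Slc25a29 and Slc25a35. Of partner genes, 3 were higher as reported above. With no filter all 3 lost their call and 1 other, Mthfd2, passed. The count was 0 without WT C and D and ranged from 0 to 2 with each library left out. The 6 lower ones became 3 after median ratio scaling, 2 with no filter and 0 without WT C and D, and ranged from 1 to 2. The median over the carriers, -0.07, was -0.021 at 5 FPKM, 0.015 after median ratio scaling, -0.0059 after quantile normalization and -0.012 without WT C and D, and its SD between libraries was 0.0476. Slc25a3 changed from -0.093 to 0.023 after median ratio scaling. Of 238 alternatives for the 12 named carriers, 212 kept direction and side of the threshold, and 1 changed sign. In 19 a call was lost, all for Slc25a26 and Slc25a29, the only 2 carriers with a call to lose. In 6 a call was gained, 4 of them from the unadjusted permutation p, which the lack of overlap fixed. The cause was not tested. No paired analysis was possible because the genotypes share no replicate numbers. Fragments per gene were not recovered, so the counting error of single genes is not given.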
